A study of Nothobranchius furzeri with 12 samples.

Results

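The melanocortin receptor gene mc5ra and the melanoregulin gene mreg were followed through RNA from tail fins of Nothobranchius furzeri, the turquoise killifish, which lives for only a season in African pools. They are 2 of the 20788 transcript entries measured, and were found by their RefSeq identifiers, XM_015949227 for mc5ra and XM_015948889 for mreg. Both were chosen by their levels in these same libraries, in which they differ between the groups, so their levels and differences are given as a description with no test. There were 12 libraries in 4 groups of 3: MZCS002 fish with red tails, MZCS002 females, GRZ-BELL fish with yellow tails, and GRZ-BELL females, where MZCS002 and GRZ-BELL are strains. RNA came from the coloured area of the tail fin, and in females from the same area. Neither the ages of the fish nor the sex of those with coloured tails is given in the sources used here, and no fish is described as treated or mutant. Every red tail is MZCS002 and every yellow tail GRZ-BELL, so colour and strain cannot be told apart. Within each strain, coloured tails could be compared only with females, so colour and any difference of sex cannot be told apart either. A further number in the labels also goes with strain.

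Melanocortin receptors are G protein-coupled receptors of the cell surface. They bind peptides cut from proopiomelanocortin, such as alpha-MSH and ACTH, and raise cyclic AMP, which drives protein kinase A. Agouti signalling protein opposes these peptides at the receptor. In fish skin the pathway acts on the black melanophores, whose pigment organelles, the melanosomes, are spread through the cell or gathered at its centre. In mammals the melanocortin-5 receptor is best known from sebaceous and other exocrine glands. Melanoregulin is the product of the mouse dilute suppressor gene, which modifies the coat colour of mice that lack the melanosome motor myosin Va. In mammalian cells it links melanosomes to RILP and the dynactin complex, through which dynein carries them towards the cell centre.

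Levels are normalized reads: the deposited values, which are read counts divided by a size factor for each library. Libraries held 5495553 to 17053983 reads. MZCS002 female 2 stood apart as the shallowest: reads were found for 16400 entries in it, and for 17644 to 18667 entries elsewhere. 1 read was worth 3.14 normalized reads in that library and 0.680 to 1.37 in the others. The means of mc5ra and mreg, and some calls, are therefore also given without it. Means and sums of other genes in MZCS002 females include it. Epidermal and fin markers were abundant in every group, as the tissue label says. The epidermis list was led by the keratin gene krt5, which gave 92.7% to 95.7% of its sum, and summed to 554530 to 1061950 normalized reads in red tails, 845976 to 1653250 in MZCS002 females, 910505 to 1327820 in yellow tails, and ran from 766551 to 1347340 in GRZ-BELL females.

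The receptor gene mc5ra was higher in red tails than in MZCS002 females and lower in yellow tails than in GRZ-BELL females. The red tails had 176, 150 and 166 normalized reads of mc5ra, from 205, 187 and 220 reads. The MZCS002 females had 61.1, 28.3 and 101 normalized reads, from 68, 9 and 149 reads. All 3 red tails lay above all 3 MZCS002 females, and the lowest red tail was 1.48 times the highest female. At this level 9 reads set the value of MZCS002 female 2, whose 95% Poisson interval ran from 12.9 to 53.7 normalized reads. The yellow tails had 16.1, 11.3 and 9.62 normalized reads of mc5ra, from 16, 13 and 7 reads. The GRZ-BELL females had 36.4, 66.6 and 61.8 normalized reads, from 31, 80 and 79 reads. All 3 yellow tails lay below all 3 GRZ-BELL females, with the lowest female at 2.27 times the highest yellow tail. The 3 yellow tails held 36 reads of mc5ra together. Their 95% Poisson intervals were 9.18 to 26.1, 6.01 to 19.3 and 3.87 to 19.8 normalized reads. Such intervals cover counting error only, since amplified reads without molecular tags need not stand for separate molecules.

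Group means of mc5ra were 164 ± 13.2 normalized reads in red tails, 63.6 ± 36.6 in MZCS002 females, 12.3 ± 3.34 in yellow tails and 54.9 ± 16.2 in GRZ-BELL females (SD, n = 3 each). In order of level, red tails came first and yellow tails last. Both female groups lay between them and overlapped, so that their order is not set by these libraries. The mean of the red tails was 2.58 times that of the MZCS002 females, a log2 difference of 1.53 ± 0.44 (SE, from a limma fit of log2(value + 1) over all 12 libraries). Without MZCS002 female 2, the mean of the remaining MZCS002 females was 81.2 normalized reads and that of the red tails 2.02 times as high. The log2 difference was then 1.05, and it was 1.95 without MZCS002 female 3, so the size of this difference turned on single female libraries. In yellow tails the mean was 0.224 times that of GRZ-BELL females, a log2 difference of -2.05 ± 0.44. Leaving out any 1 library gave -2.32 to -1.89. Since this is RNA of whole fin pieces, fewer cells that express a gene and less of its RNA per cell cannot be told apart.

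**Figure D1:**
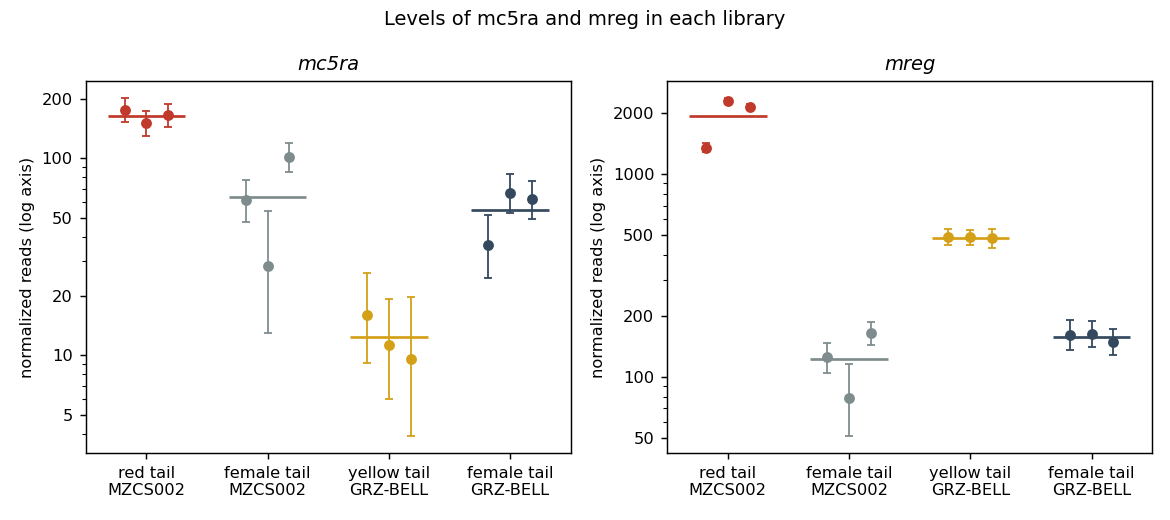
Normalized reads (log axis) of mc5ra and mreg in each of the 12 libraries, with a point for each library, its 95% Poisson interval and a horizontal line at the group mean. For mc5ra the red tails lie at 150 to 176 and the yellow tails at 9.62 to 16.1, on either side of the females, whereas for mreg both kinds of coloured tail lie above the females of their strain.

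Groups that do not overlap are common with 3 libraries a side. Of the 15170 entries tested (mean of at least 10 normalized reads, which both genes passed), 12.7% had every red tail above every MZCS002 female and 12.9% had every yellow tail below every GRZ-BELL female. Both held together, as in mc5ra, for 151 entries (0.995%), and the reverse of both for 106 (0.699%). The red tails of mc5ra also lay above the yellow tails, as in 16.9% of entries tested. Their mean was 13.3 times that of the yellow tails, a log2 difference of 3.66 ± 0.44, and the lowest red tail was 9.35 times the highest yellow tail. Between the females of both strains the log2 difference of mc5ra, MZCS002 minus GRZ-BELL, was 0.08 ± 0.44, and leaving out 1 library moved it between -0.34 and 0.56. The female levels thus gave no stable order, while red and yellow tails were far apart.

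The melanoregulin gene mreg was higher in both kinds of coloured tail than in the females of their strain. The red tails had 1352, 2291 and 2142 normalized reads of mreg, from 1570, 2853 and 2841 reads. The MZCS002 females had 125, 78.6 and 164 normalized reads, from 139, 25 and 242 reads. The groups were far apart, with the lowest red tail at 8.22 times the highest MZCS002 female. The yellow tails had 490, 489 and 482 normalized reads of mreg, from 488, 563 and 351 reads. The GRZ-BELL females had 161, 163 and 149 normalized reads, from 137, 196 and 191 reads. All 3 yellow tails lay above all 3 GRZ-BELL females, and the lowest of them was 2.95 times the highest female. The spread among yellow tails was small, with a coefficient of variation of 0.830%, against 4.73% in GRZ-BELL females. In the other strain it was 26.2% among red tails and 35.1% among MZCS002 females. The yellow tails lay closer together than counting error alone would place them. Their 95% Poisson intervals were 447 to 535, 449 to 531 and 433 to 536 normalized reads. Their small spread is therefore not read as a trait of these fish.

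Group means of mreg were 1928 ± 504.9 normalized reads in red tails, 123 ± 43.0 in MZCS002 females, 487 ± 4.04 in yellow tails and 158 ± 7.47 in GRZ-BELL females (SD, n = 3 each). In order of level, red tails came first and yellow tails second, with both female groups below them. The female groups overlapped, so their order is not set. The mean of the red tails was 15.7 times that of the MZCS002 females, a log2 difference of 3.99 ± 0.29 (SE, limma). Without MZCS002 female 2 the mean of those females was 145 normalized reads and that of the red tails 13.3 times as high. In yellow tails the mean was 3.09 times that of GRZ-BELL females, a log2 difference of 1.62 ± 0.29. Every red tail above every MZCS002 female together with every yellow tail above every GRZ-BELL female, as in mreg, was seen in 459 entries (3.03% of those tested). For the yellow tails alone that share was 13.1%.

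Red tails also had more mreg than yellow tails. The mean of the red tails was 3.96 times that of the yellow tails, a log2 difference of 1.95 ± 0.29, and the lowest red tail was 2.76 times the highest yellow tail. Between MZCS002 and GRZ-BELL females the log2 difference was -0.42 ± 0.29. It ran from -0.67 to -0.14 when 1 library was left out. The difference between coloured tails and females can be set side by side in the 2 strains, which share no library. For mc5ra it was larger in MZCS002 by 3.58 ± 0.62 on the log2 scale, with opposite signs in the strains. For mreg it was larger in MZCS002 by 2.37 ± 0.40, with the same sign in both. Neither was tested, since these levels chose the genes.

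**Figure D2:**
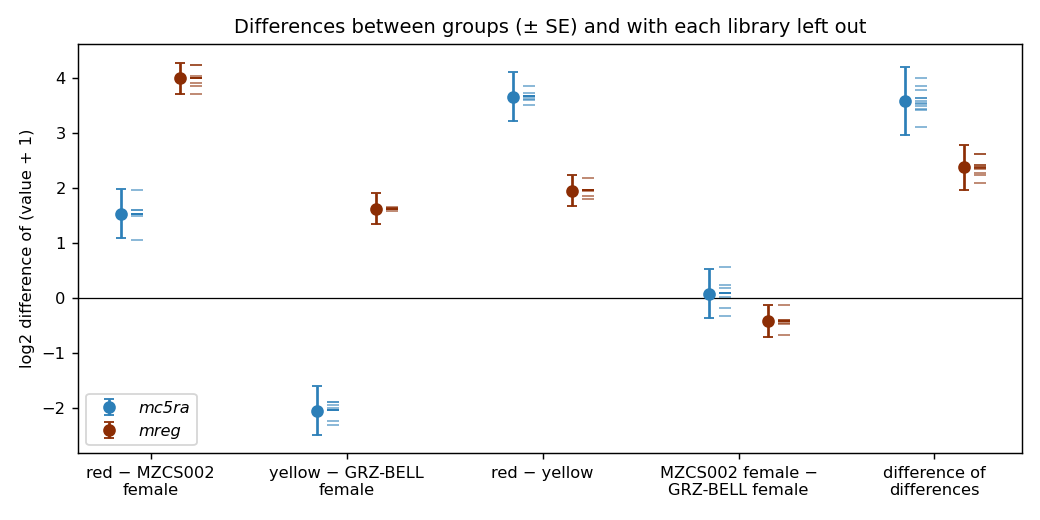
Log2 differences of mc5ra and mreg in each contrast with bars for the SE of the limma fit, and the values when 1 library is left out. The differences of mc5ra from females have opposite signs in the strains (1.53 in red, -2.05 in yellow tails), those of mreg the same sign (3.99 and 1.62).

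The other genes of the melanocortin pathway did not pass the test in these fins. Of 31 symbols listed for the ligand, its processing enzymes, antagonists, receptors and accessory proteins, 7 besides mc5ra had an entry, and 5 of these were tested. The background share called by limma (Benjamini-Hochberg adjusted p under 0.05, over all 15170 entries) was 2.71% higher and 1.82% lower for red tails against MZCS002 females. It was 1.49% and 0.349% for yellow tails against GRZ-BELL females, and 3.85% and 3.58% for red against yellow tails. Between MZCS002 and GRZ-BELL females it was 0.817% and 0.923%, and for the difference between strains in the tail-minus-female difference 0.0857% and 0.0923%. In these 5 contrasts, in this order, limma called 0 of the 5 genes throughout, and 0, 0, 2, 1 and 0 of them had an unadjusted p under 0.05. The share of all entries with an unadjusted p under 0.05 is not given. Such counts, here and below, therefore cannot be set against a background. edgeR called 0 in each, and DESeq2 called only atrnl1b, in red against yellow tails, which limma also called without MZCS002 female 2.

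Among the genes that make peptide hormones, pcsk1, a convertase that cuts prohormones, averaged 4.32 ± 0.745 normalized reads in red tails, 5.32 ± 1.67 in MZCS002 females, 3.84 ± 2.81 in yellow tails and 12.9 ± 3.75 in GRZ-BELL females, too low to be tested. The carboxypeptidase gene cpe, which trims the cut peptides, was abundant throughout, at 1226 ± 322 normalized reads in red tails, 918 ± 232 in MZCS002 females, 915 ± 185 in yellow tails and 649 ± 135 in GRZ-BELL females. The amidating enzyme gene pam stood at 579 ± 77.3 in red tails, 541 ± 53.7 in MZCS002 females, 697 ± 98.3 in yellow tails and 683 ± 114 in GRZ-BELL females. Processing enzymes of general use were thus present in all groups, whereas the ligand gene pomc was not analysed here.

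The agouti gene asip1, whose product opposes melanocortins, was low, at 10.4 ± 6.65 normalized reads in red tails, 40.3 ± 36.6 in MZCS002 females, 8.09 ± 6.29 in yellow tails and 11.7 ± 10.2 in GRZ-BELL females. Its highest value, 81.7 normalized reads, was that of the shallow MZCS002 female 2 and came from 26 reads. The attractin-like gene atrnl1b, a relative of the agouti accessory receptor attractin, had 339 ± 33.9 normalized reads in red tails, 428 ± 74.1 in MZCS002 females, 527 ± 56.8 in yellow tails and 638 ± 15.8 in GRZ-BELL females. The mahogunin gene mgrn1b, a ubiquitin ligase that acts on melanocortin receptor signalling in mice, had 435 ± 42.8 in red tails, 487 ± 32.4 in MZCS002 females, 593 ± 60.4 in yellow tails and 610 ± 41.3 in GRZ-BELL females. Of the other receptors in the list, mc4r had no read in any library. The genes mc1r and mc2r were not analysed here. Of the melanin-concentrating hormone genes, whose peptide gathers melanosomes in many teleosts, pmchl had no read and mchr1a had 2 reads, both in one MZCS002 female.

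The median log2 difference of the 5 tested genes was -0.17 for red tails against MZCS002 females and -0.04 for yellow tails against GRZ-BELL females. Over all entries tested these medians were 0.01 and -0.02. It was -0.26 for red against yellow tails, -0.32 between the females and -0.08 for the difference between strains.

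Downstream of the receptor, 21 of 43 symbols listed for the cyclic AMP relay had an entry and 19 were tested. Of these, 2 were higher and 1 lower in red tails than in MZCS002 females (2.71% and 1.82% of all entries). In yellow tails 1 was higher than in GRZ-BELL females (1.49% of all entries). Between red and yellow tails, 1 of the 19 was higher and 1 lower in red, near the 3.85% and 3.58% of all entries. The regulatory subunit gene of protein kinase A, prkar1b, had 1002 ± 248 normalized reads in red tails, 140 ± 66.9 in MZCS002 females, 372 ± 16.7 in yellow tails and 146 ± 39.1 in GRZ-BELL females. It was higher in red tails than in MZCS002 females by 2.94 ± 0.36 on the log2 scale (limma adjusted p = 0.00063) and stayed called with each library left out. Against yellow tails its log2 difference was 1.40 ± 0.36 (limma adjusted p = 0.036). Leaving out any 1 of the red or yellow tails or GRZ-BELL female 1 ended that call (limma adjusted p up to 0.14). In yellow tails against GRZ-BELL females prkar1b differed by 1.37 ± 0.36 and missed the threshold (limma adjusted p = 0.096). There it was called by DESeq2, and by limma without MZCS002 female 2.

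The remaining calls of the relay were less stable. The gene mitfa, for the melanophore master regulator, was higher in red tails by 2.48 ± 0.57 (limma adjusted p = 0.03), a call lost without red tail 1, red tail 2 or MZCS002 female 1 (up to 0.15). Its paralog mitfb was higher in yellow tails by 1.18 ± 0.25 (limma adjusted p = 0.03), a call lost without yellow tail 1 or 2 or any 1 of the GRZ-BELL females (up to 0.16). The adenylyl cyclase gene adcy7, whose product makes cyclic AMP, differed by -1.34 ± 0.34 in red tails against MZCS002 females (limma adjusted p = 0.046). With 1 library left out, it was called only without red tail 3, MZCS002 female 3 or yellow tail 2 (up to 0.19 for the others). The gene creb1b, for a transcription factor driven by protein kinase A, differed by -1.68 ± 0.42 in red against yellow tails (limma adjusted p = 0.032). It was no longer called without any 1 of the red tails, yellow tail 1, yellow tail 3 or GRZ-BELL female 1 (up to 0.15). With libraries scaled to equal totals, limma did not call adcy7 (adjusted p = 0.051), mitfb (0.16), creb1b (0.062) or prkar1b in red against yellow tails (0.066). With only the groups compared it did not call mitfa (0.12) or adcy7 (0.19), and with no filter on low values it did not call adcy7 (0.06). A replicate block ended the limma calls of adcy7 (adjusted p = 0.079), mitfb (0.052) and prkar1b in red against yellow tails (0.058). The list's median log2 difference was -0.44 for red tails and 0.16 for yellow tails against females. Between the females, and for the difference between strains, limma called 0 of the 19 genes, edgeR 0 and DESeq2 1 in each, with an unadjusted p under 0.05 for 3 in each.

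**Figure D3:**
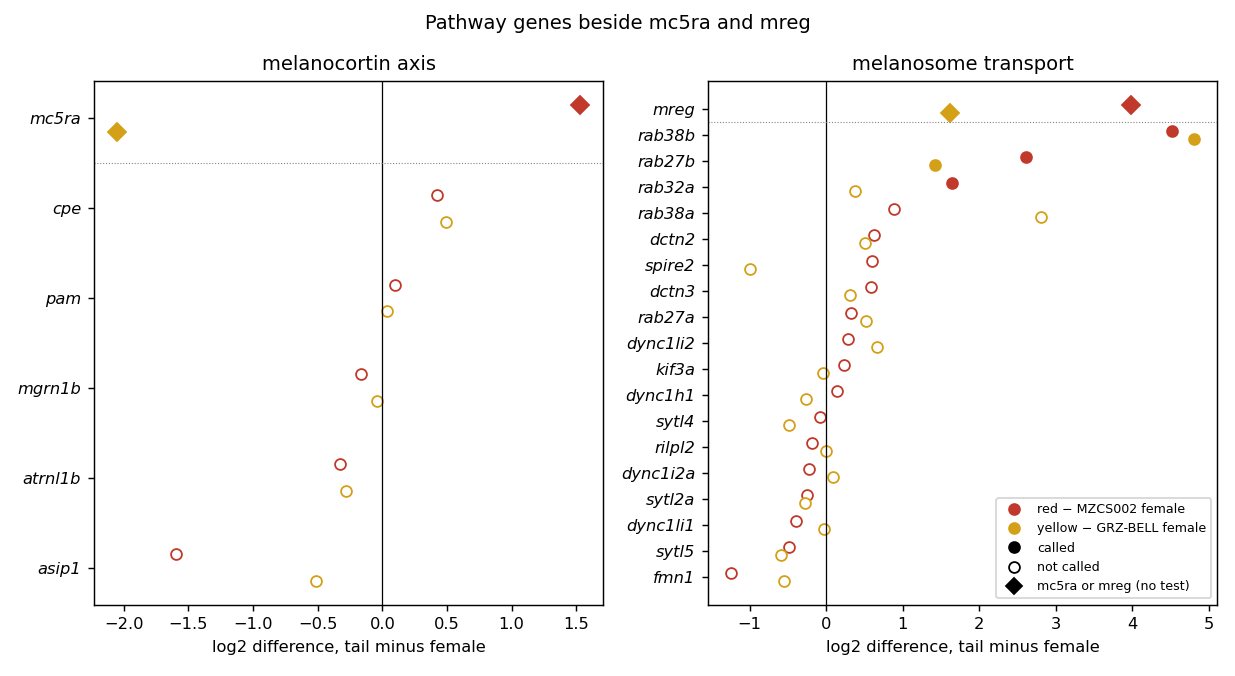
Log2 differences (limma fit of log2(value + 1)) of the tested genes of the melanocortin axis and of melanosome transport, for red tails against MZCS002 females and yellow tails against GRZ-BELL females, with filled circles for called genes, open circles for the others and diamonds for mc5ra and mreg. Filled circles stand at rab38b, rab27b and rab32a only, and every melanocortin gene besides mc5ra has open circles.

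Genes listed for melanosome transport, some of which have other roles as well, were set beside mreg. Of 47 symbols listed, 18 besides mreg had an entry, and all were tested. By limma, 3 were higher in red tails than in MZCS002 females (2.71% of all entries). In yellow tails 2 were higher than in GRZ-BELL females (1.49%), and 1 was higher in red than in yellow tails (3.85%). None was called as lower in these contrasts. With an unadjusted p under 0.05 there were 4, 4 and 6, counts with no background share beside them. The list's median log2 difference was 0.26 in red tails against MZCS002 females, 0.04 in yellow tails against GRZ-BELL females and 0.10 for red against yellow tails.

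The GTPase gene rab27b is a paralog of rab27a, whose product in mammals recruits melanophilin and myosin Va to melanosomes. It had 1609, 1727 and 1603 normalized reads in red tails, against 234, 277 and 300 in MZCS002 females. It had 693, 1309 and 811 in yellow tails, against 307, 320 and 383 in GRZ-BELL females. In both strains every coloured tail lay above every female of the strain, as in 3.03% of entries tested. Its log2 difference was 2.61 ± 0.25 in red tails (limma adjusted p = 8.1e-05) and 1.43 ± 0.25 in yellow tails (limma adjusted p = 0.0083). Only with libraries scaled to equal totals was the yellow call lost (limma adjusted p = 0.053).

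The GTPase genes rab38b and rab32a belong to a family that in mammals brings melanin enzymes to melanosomes. The level of rab38b was 128, 171 and 103 normalized reads in red tails, against 6.29, 3.14 and 5.44 in MZCS002 females. It was 42.2, 56.4 and 28.9 in yellow tails, against 2.35, 0 and 0 in GRZ-BELL females. The females were thus near the floor of detection, and the GRZ-BELL females held 2 reads in all against 128 in the yellow tails. The ratio of mean normalized reads was 54.3. For the ratio of the pooled reads, scaled by the size factors, a 95% counting interval ran from 20.1 to 619. That interval leaves out the spread between fish. On the log2(value + 1) scale, which depends on the pseudocount for such low values, the difference was 4.51 ± 0.56 in red tails (limma adjusted p = 0.00065) and 4.81 ± 0.56 in yellow tails (limma adjusted p = 0.00045).

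For rab32a the levels were 1633, 1580 and 1137 normalized reads in red tails, against 544, 402 and 440 in MZCS002 females. They were 646, 871 and 502.99 in yellow tails, against 496, 516 and 506.6 in GRZ-BELL females. Red tails lay above all other libraries, while yellow tails overlapped the GRZ-BELL females. Of entries tested, 12.7% had every red tail above every MZCS002 female, and 16.9% had every red tail above every yellow tail. The log2 difference was 1.64 ± 0.25 in red tails against MZCS002 females (limma adjusted p = 0.0029). Against yellow tails it was 1.12 ± 0.25 (limma adjusted p = 0.017), a call lost without red tail 1, red tail 2, yellow tail 1 or yellow tail 3 (up to 0.081). Between red and yellow tails, limma without MZCS002 female 2 called 5 genes of the list, and DESeq2 called 4 with all libraries. In both, dync1li1 was among them and was lower in red tails. Over all entries, DESeq2 called 2350 in this contrast, against 1127 by limma, and limma with 1 library left out called 341 to 2620. The counts of 5 and 4 are therefore not read as a trait of the list.

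The gene rab27a itself was not called in any contrast, at 1129 ± 205 normalized reads in red tails, 909 ± 253 in MZCS002 females, 1711 ± 316 in yellow tails and 1225 ± 394 in GRZ-BELL females. The rab38b paralog rab38a had 31.0, 31.3 and 28.7 normalized reads in red tails, against 106, 9.43 and 3.40 in MZCS002 females. In yellow tails it had 94.3, 139 and 118, against 14.1, 15.8 and 17.2 in GRZ-BELL females. The yellow tails lay above the GRZ-BELL females, as in 13.1% of entries tested, but the log2 difference of 2.81 ± 0.83 did not pass the test (limma adjusted p = 0.14). The dynein and dynactin genes dync1h1, dync1i2a, dync1li1, dync1li2, dctn2 and dctn3, parts of the motor to which melanoregulin connects in mammals, were not called in any contrast by limma with all libraries. The gene dync1li1, for a light intermediate chain of dynein, had 215 ± 20.0 normalized reads in red tails and 373 ± 60.7 in yellow tails, a log2 difference of -0.79 ± 0.25 that missed the threshold (limma adjusted p = 0.071) but was called by DESeq2. The genes mlpha, mlphb, myo5aa, rilp and dctn1b were not analysed here. Between the females, limma called 0 of the 18 genes, edgeR 0 and DESeq2 0, with an unadjusted p under 0.05 for 1. For the difference between strains limma called 0, edgeR 0 and DESeq2 1 (rab32a), with an unadjusted p under 0.05 for 2.

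Genes that build melanosomes were listed apart, with 21 of 37 symbols tested. In red tails 4 were higher than in MZCS002 females (2.71% of all entries), and in yellow tails 1 was higher than in GRZ-BELL females (1.49%). In red against yellow tails 3 were higher (3.85% of all entries). The tetraspanin gene tspan10 differed by 4.48 ± 0.38 in red tails (limma adjusted p = 6.3e-05) and by 3.05 ± 0.38 in yellow tails (limma adjusted p = 0.00069). Another tetraspanin gene, tspan36, differed by 3.50 ± 0.52 in red tails (limma adjusted p = 0.0024). These 3 calls held with each library left out, whereas the other 5 calls of the list were lost without at least 2 of the libraries each. The limma calls lost were those of zgc:110239 and bloc1s2 in red tails against MZCS002 females (adjusted p up to 0.085 and 0.17), and of vps33a, tspan10 and tspan36 in red against yellow tails (up to 0.069, 0.17 and 0.16). Red tail 1 and red tail 2 were among the libraries whose removal ended each of them. A replicate block also ended the limma calls of bloc1s2 (adjusted p = 0.085) and tspan36 (0.056). No filter on low values ended those of bloc1s2 (0.059) and tspan10 (0.055). With only the groups compared, zgc:110239 (0.12) and bloc1s2 (0.22) were not called.

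The summed pigment cell markers, like mreg, stood higher in both kinds of coloured tail than in the females of their strain. Against females of the strain, limma called 2.71% of all entries as higher in red tails and 1.49% in yellow tails. Of the 9 melanophore markers tested, 5 were higher in red tails than in MZCS002 females, among them mitfa, also counted in the cyclic AMP relay. In yellow tails 5 of the 9 were higher than in GRZ-BELL females. Their summed level over all 10 markers in the table was 6460 to 11826 normalized reads in red tails, 1081 to 2000 in MZCS002 females, 7598 to 12468 in yellow tails, and ran from 1168 to 1596 in GRZ-BELL females. Of these markers, pmelb had no read in MZCS002 females. Of the 8 xanthophore markers, 5 were higher in red and 7 in yellow tails than in females of the strain. The list's sum is led by gch2, a pteridine gene that alone gave 89.5% of it in red tails and 62.3% in yellow tails. The 8 markers summed to 38540 to 95881 normalized reads in red tails, 1059 to 1955 in MZCS002 females, 11540 to 37398 in yellow tails, and ran from 888 to 1928 in GRZ-BELL females. Of the 7 iridophore markers, 5 were higher in red and 6 in yellow tails. Their sum was 3668 to 7970 in red tails, 189 to 214 in MZCS002 females, 5312 to 15714 in yellow tails, and ran from 219 to 416 in GRZ-BELL females.

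The sums of all 3 pigment cell lists thus stood higher in both kinds of coloured tail than in females, as mreg did. For mc5ra this held only in red tails. Single markers could go the other way in red tails against MZCS002 females. There oca2 averaged 15.6 ± 3.33 against 24.2 ± 15.9 normalized reads, and ltk 51.3 ± 5.90 against 67.7 ± 36.0. Red and yellow tails overlapped in the melanophore sum. Between them limma called 0 of the 9 melanophore markers, edgeR 1 and DESeq2 3, with an unadjusted p under 0.05 for 4. As lower in red, limma called 2 xanthophore markers, aox6 and pts, and 1 iridophore marker, ltk (3.58% of all entries). The call of aox6 held with each library left out. Those of pts and ltk were lost without 4 and 9 of the libraries (limma adjusted p up to 0.097 and 0.12). Against females, calls of xdh and plin6 in red and of gch2, plin6 and alx4a in yellow tails were lost without 1 or 2 of the libraries. The part of pigment cell content in the levels of mc5ra and mreg was not tested.

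When each member was divided by the summed melanophore markers of its library, some directions turned round. This scaling was chosen after the data had been seen. The pigment cell sums were themselves higher in coloured tails. Each direction after division by them thus only sets 2 differences already given against each other, and tests nothing. Per 1000 normalized reads of the marker sum, mc5ra stood at 12.7 to 25.7 in red tails and 26.2 to 50.6 in MZCS002 females, so that red tails now lay just below. The 26.2 was that of MZCS002 female 2, with 9 reads of mc5ra, whose counting error exceeds its gap to the red tails. The other MZCS002 females stood at 34.9 and 50.6, above every red tail. In yellow tails mc5ra stood at 0.905 to 1.91, against 31.2 to 50.9 in GRZ-BELL females, further below than without the division. For mreg the same quantity was 138 to 332 in red tails and 71.2 to 82.2 in MZCS002 females, still higher in every red tail. In yellow tails it was 39.2 to 63.5, against 93.5 to 138 in GRZ-BELL females, so that yellow tails now lay below. Relative to melanophore markers, then, mreg was higher in red tails but not in yellow tails. The gene mc5ra was lower in yellow tails, and lower in red tails by a margin within the counting error of MZCS002 female 2. Divided by the summed xanthophore markers, mreg stood at 23.9 to 55.6 per 1000 in red tails, below the 74.2 to 94.6 in MZCS002 females. In yellow tails it stood at 13.1 to 41.8, below the 83.5 to 168 in GRZ-BELL females. Divided by the summed iridophore markers, mreg stood at 283 to 584 in red tails, overlapping the 417 to 826 in MZCS002 females. In yellow tails it stood at 31.1 to 90.8, below the 387 to 745 in GRZ-BELL females. The gene mc5ra lay below the females in both kinds of coloured tail under both of these divisions. Whether mreg was higher in red tails than in females therefore depended on which pigment cell list it was divided by. It may also depend on single genes, since gch2 gave 89.5% of the xanthophore sum in red tails, while pts led it in MZCS002 females (30.8%). The iridophore sum was led by pnp5a in red tails (56.8%) and by tfec in MZCS002 females (35.5%). The melanophore sum was led by tyr in red tails (27.3%) and by pmela in MZCS002 females (40.7%). Division by sums without these leading genes was not run. With the summed epidermis markers as divisor, both genes kept the directions seen without division. Per 1000, mreg ran from 2.02 to 2.71 for red tails, above 0.0746 to 0.194 for MZCS002 females. Yellow tails, at 0.369 to 0.537, exceeded GRZ-BELL females, at 0.119 to 0.213. For mc5ra the red tails, at 0.156 to 0.318, lay above MZCS002 females, at 0.0269 to 0.12. Here yellow tails, at 0.00736 to 0.0124, lay below GRZ-BELL females, at 0.027 to 0.0869.

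**Figure D4:**
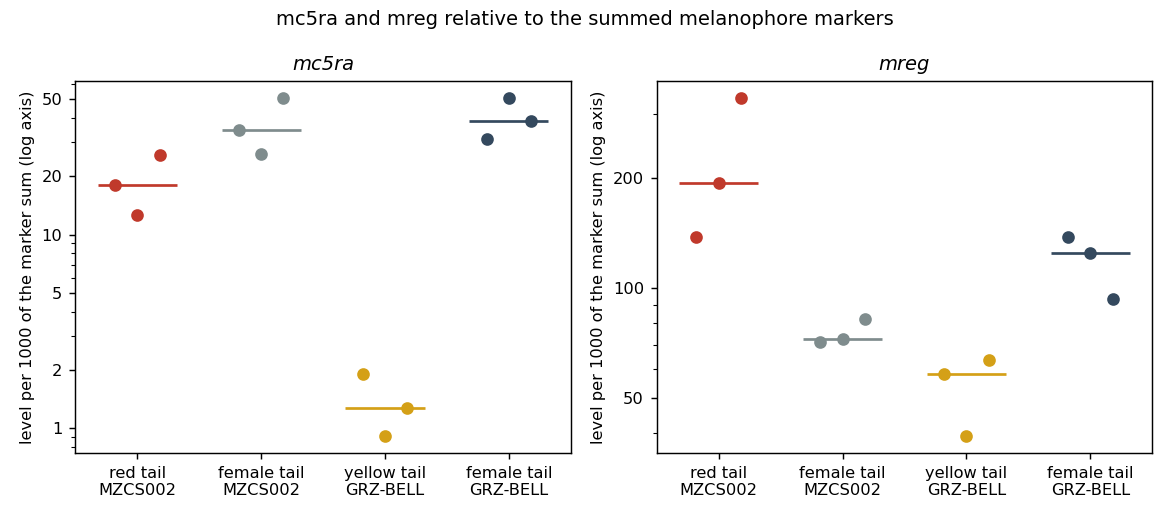
Normalized reads of mc5ra and mreg per 1000 normalized reads of the summed melanophore markers (log axis), with a point for each library and a line at the group median. Yellow tails lie lowest for both genes (0.905 to 1.91 for mc5ra, 39.2 to 63.5 for mreg), and red tails lie above the MZCS002 females for mreg only.

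Markers of other tissues also differed between groups in some lists. Of the 7 epidermis markers, limma, edgeR and DESeq2 called 0 in each of the 5 contrasts, with an unadjusted limma p under 0.05 for 1 in red tails against MZCS002 females and for 3 between the females. For fin ray bone and matrix, 2 of 9 were higher in red tails than in MZCS002 females (2.71% of all entries). Of the muscle, nerve and fat cell markers tested (4, 3 and 3), limma called 1 each as lower in red tails than in MZCS002 females (1.82% of all entries). In the muscle list the median log2 difference was -2.93 there, and edgeR and DESeq2 each called 3 of the 4 genes. In yellow tails 2 of 10 blood and macrophage markers were higher and 1 of 3 fat cell markers lower than in GRZ-BELL females (1.49% and 0.349% of all entries). Each of these 8 calls against females was lost on leaving out 1 to 10 of the libraries in turn (limma adjusted p up to 0.21). Between red and yellow tails, limma called 2 of 9 fin ray markers as higher in red (3.85% of all entries). It called 2 of 10 blood and macrophage markers as lower in red (3.58%). The fin ray gene and2, for a fibre protein of the fin fold, had 919 ± 139 normalized reads in red tails and 75.6 ± 33.9 in yellow tails, a log2 difference of 3.66 ± 0.64 (limma adjusted p = 0.0058). The red blood cell gene slc4a1a, for an anion exchanger, had 40.9 ± 18.3 in red tails and 374 ± 171 in yellow tails, a log2 difference of -3.14 ± 0.52 (limma adjusted p = 0.0043). These calls of and2 and slc4a1a held with each library left out, while those of msx1a and gata1a were lost without 6 and 5 of the libraries (limma adjusted p up to 0.14 and 0.16). The muscle markers summed to 9.80 to 23.3 normalized reads in red tails, 40.9 to 358 in MZCS002 females, 9.03 to 27.5 in yellow tails, and ran from 20.8 to 30.5 in GRZ-BELL females. The part of these tissues in the levels of mc5ra and mreg was not tested.

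The genes whose pattern was most like each member were ranked by Pearson's r of log2(value + 1) over the 12 libraries, among 8700 other tested entries with a symbol. The libraries fall into 4 groups, so r carries the group levels and is given as a description. For mc5ra the nearest were ift122, an intraflagellar transport gene (r = 0.92), mettl15, a mitochondrial ribosomal RNA methyltransferase gene (0.90), rxfp2a, a relaxin family receptor gene (0.89), hlfb, a bZIP transcription factor gene (0.89), and fbxo18 (0.88). With the group means removed, r was 0.01 to 0.72 for these genes. Their levels had the same order of extremes as mc5ra, which choosing them by r favours. The gene hlfb, for example, had 106 ± 6.57 normalized reads in red tails, 42.5 ± 25.5 in MZCS002 females, 17.9 ± 5.66 in yellow tails and 43.1 ± 6.35 in GRZ-BELL females. The gene ift122 had 169 ± 29.1 in red tails, 86.8 ± 24.4 in MZCS002 females, 53.1 ± 13.2 in yellow tails and 108 ± 38.8 in GRZ-BELL females.

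For mreg the nearest were agmo, for an enzyme that cleaves ether lipids with tetrahydrobiopterin as cofactor (r = 0.97), tmem130 (0.97), prkar1b (0.96), the cadherin gene cdh6 (0.96) and rab27b (0.95). With the group means removed, r ran from 0.06 for rab27b to 0.82 for cdh6. The gene agmo had 17262 ± 5003 normalized reads in red tails, 256 ± 171 in MZCS002 females, 1977 ± 1145 in yellow tails and 388 ± 106 in GRZ-BELL females. The gene cdh6 had 813 ± 118 in red tails, 143 ± 90.2 in MZCS002 females, 386 ± 106 in yellow tails and 131 ± 6.84 in GRZ-BELL females. Red tails were highest and yellow tails second in these genes, as in mreg, an order that choosing them by r favours. The genes prkar1b and rab27b also belong to the lists above.

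**Figure D5:**
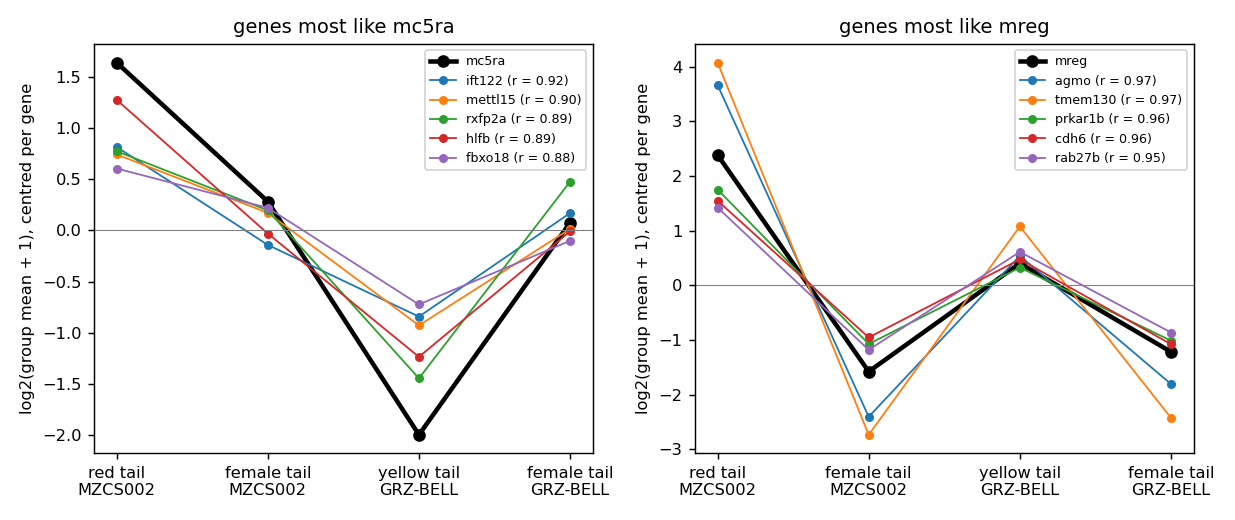
Levels of the 5 genes with the pattern most like mc5ra and the 5 most like mreg, beside the members, as log2(group mean + 1) in each of the 4 groups, centred for each gene. Genes like mc5ra are lowest in yellow tails, and genes like mreg are highest in red tails with yellow tails second, which choosing them by r favours.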

How the data were processed

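The deposited values are a signal for each transcript entry, made by the authors from read counts by dividing each library by its size factor. Per the submitters' processing notes, Trimmomatic, STAR, featureCounts and DESeq2 were used. The sources used here give no versions, genome build, strand setting or filters. Per the labels' protocols, RNA was extracted with QIAzol, treated with DNase and primed with oligo-dT. Samples were grouped by title, and the series' design text gives 3 biological replicates a group. Each library's values were multiples of 1 read, and of the values above 0, 100% lay within 0.01 of a whole number of reads. All columns of samples were used. Gene names were looked up by identifier in RefSeq's table for NfurGRZ-RIMD1, and 14145 entries (68.0%) had one there. That table served for names and gene order, and no coordinates are given. Symbols with no matched entry were not analysed here, and entries with only a LOC symbol could not join a list. Counting could divide reads of near-identical genes among their entries.

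Values were tested as log2(value + 1) with limma 3.58.1 (R 4.3.3, intensity trend in eBayes). The 15170 entries whose mean reached 10 were kept. The fit took in all 12 libraries, had a term for group and no other, and gave calls where the Benjamini-Hochberg adjusted p was under 0.05. A difference on this scale understates the change of low genes. Alternatives were a pseudocount of 8, no filter on low values, libraries scaled to equal totals, only the groups compared, edgeR 4.0.16 and DESeq2 1.42.0 on the recovered reads, a replicate block, and each library left out. Both limma and edgeR were tested on simulated data. The members and lists were chosen with earlier results of these data known. Named were mc5ra and mreg, called members of each list (up to 6 a contrast), the melanocortin and melanin-concentrating hormone genes, a set of transport genes, the 5 entries most like each member and the 2 nearest measured genes on each side.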

Additional observations from a re-analysis of the deposited data

Results flagged for a closer look

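For mc5ra, every red tail lay above every MZCS002 female while every yellow tail lay below every GRZ-BELL female. The tail-minus-female difference was larger in MZCS002 than in GRZ-BELL by 3.58 ± 0.62 on the log2 scale (SE, limma), and this difference was not tested, since the levels chose the gene. The opposite arrangement was seen in ppp1r1b, a gene 2 places from mreg in the RefSeq gene order, whose product inhibits protein phosphatase 1 once protein kinase A has acted on it. Every red tail lay below every MZCS002 female, and every yellow tail lay above every GRZ-BELL female. Its tail-minus-female difference, MZCS002 minus GRZ-BELL, was -2.65 ± 0.48 and missed the threshold (limma adjusted p = 0.053). Red tails above and yellow tails below the females, without overlap, was seen in 0.995% of entries tested, and the reverse in 0.699%.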

How the results depend on the processing

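The log2 differences of mc5ra and mreg kept their sign under every alternative run, apart from the small difference of mc5ra between the females (-0.34 to 0.56 with 1 library left out, -0.13 to 0.28 under the other settings). With a pseudocount of 8, mc5ra differed by 3.09 between red and yellow tails and by 3.01 between the strains' tail-minus-female differences. In the order red against MZCS002 female, yellow against GRZ-BELL female, red against yellow, MZCS002 against GRZ-BELL female, and difference between strains, limma called 687, 279, 1127, 264 and 27 entries. DESeq2 called 1757, about 7.1e+02, 2350, 808 and 625. With only the groups compared, which gives no value for the last, limma called 120, 603, 1783 and 70. A pseudocount of 8 gave 61 for the last. With 1 library left out the counts ran from 170 to 1166, 149 to 544, 341 to 2620, 110 to 360 and 7 to 134. For mc5ra the differences then ran from 1.05 to 1.95, -2.32 to -1.89, 3.51 to 3.85, -0.34 to 0.56 and 3.10 to 4.00. For mreg they ran from 3.70 to 4.23, 1.58 to 1.65, 1.80 to 2.18, -0.67 to -0.14 and 2.08 to 2.61. Equal totals put the median log2 difference of all entries at 0.26, -0.09, 0.09, -0.23 and 0.32 (0.01, -0.02, -0.01, -0.02 and 0.01 before). Higher and lower calls were then 647 and 134 for red against MZCS002 female (411 and 276 before), 668 and 364 for red against yellow (584 and 543), 85 and 179 between females (124 and 140) and 28 and 8 for the difference between strains (13 and 14). A replicate block gave 347, 240, 835, 210 and 14 calls. Same-numbered libraries deviated together weakly at most (r from -0.308 to 0.170). Such values cannot show whether the numbers pair libraries. Of 68 calls of named genes, 38 held under every setting and 0 reversed; the cause of the losses was not tested. Depth limits mc5ra in yellow tails, with 36 reads in all, and in MZCS002 female 2, with 9.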

Other observations

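The nearest measured genes on each side of mc5ra and mreg were taken from the RefSeq gene order. None of those of mc5ra was directly beside it. On one side fam210ab and LOC107378883, 5 and 6 genes away, were not called in any contrast by limma. On the other side LOC107378808 and ncam3, 4 and 5 genes away, were too low to be tested. The cell adhesion gene ncam3 had 28.4 ± 22.9 normalized reads in red tails, 2.25 ± 1.19 in MZCS002 females, 2.70 ± 2.75 in yellow tails and 0.783 ± 1.36 in GRZ-BELL females (SD, n = 3 each). Near mreg, rprml, 2 genes away, was at or near 0 in every group. The gene tcap, 1 gene away from mreg, averaged 10.8 ± 9.79 normalized reads in MZCS002 females and 0 to 1.17 in the other groups. Both were too low to be tested. The kinase gene cdk12, 4 genes from mreg, was not called by limma.

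The gene ppp1r1b had 38.7, 32.1 and 32.4 normalized reads in red tails, against 93.4, 88.0 and 202 in MZCS002 females. It had 234, 174 and 216 in yellow tails, against 115, 140 and 84.4 in GRZ-BELL females. Red tails were thus lowest and yellow tails highest. The log2 difference was -2.55 ± 0.34 in red against yellow tails (limma adjusted p = 0.0012), called with each library left out. It was -1.76 ± 0.34 in red tails against MZCS002 females (limma adjusted p = 0.015), and that call was lost without red tail 2 (0.072), with equal totals (0.058) and with only the groups compared (0.14). In yellow tails against GRZ-BELL females the difference of 0.89 ± 0.34 did not pass the test (limma adjusted p = 0.29).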
